A study of Mus musculus with 9 samples.

Results

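The DNA replication machinery was followed as 49 genes of the 25655 in the deposited table, chosen by name for the steps of origin licensing, helicase loading and firing, DNA synthesis, nucleotide supply and chromatin assembly. All 49 were found. Of these, 48 had 1 or more counts in each of the 9 libraries, which left 12614 genes for testing. The exception was *Gins3*, which had a count of 0 in 1 QSCs library.

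RNA was sequenced from muscle stem cells (MuSCs), the Pax7-expressing cells that rest beside muscle fibres and divide after injury or in culture, in 3 groups of 3 libraries. Cells sorted as MyoD-tdTomato low (tdT-low) or as MyoD-tdTomato high (tdT-high) were taken from hindlimb muscle of MyoD-KI mice aged 10 to 16 weeks, in which a red fluorescent protein is made together with MYOD from the endogenous locus, on 1 of the *Myod1* alleles, and of which the study used males and females. They were isolated with magnetic beads against integrin α7, grown for 5 days in a serum-rich growth medium and parted by FACS on tdTomato. QSCs were MuSCs taken directly from leg muscle of male Pax7-YFP mice aged 15 to 16 weeks, with YFP on both *Pax7* alleles, and were not cultured. The cultured groups and QSCs therefore differed in mouse line, isolation, culture and, in part, sex and age, and these cannot be told apart here. The Methods describe the libraries as technical replicates, so p-values reflect only how far these libraries differ, and that difference may be technical.

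A cell copies its DNA in a fixed order of steps. In G1, the origin recognition complex (ORC), CDC6 and CDT1 load the MCM helicase onto origins. At the start of S phase, the kinase CDC7-DBF4 and the cyclin-dependent kinases recruit CDC45 and GINS to MCM, and DNA polymerases follow the opened helix with the sliding clamp PCNA. Cells that leave the cycle keep few of these transcripts, since many of the genes are driven by E2F transcription factors and held down by RB-family proteins in quiescence. Quiescent MuSCs in resting muscle are textbook cells outside the cycle, and cultured MuSCs divide until they differentiate and fuse.

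Across the whole series, libraries held 24471782 to 25767904 counts in tdT-low cells, 24643176 to 26782872 in tdT-high cells and 7514633 to 18077031 in QSCs, with the lowest total in QSCs replicate 2. Chemosensory receptor genes took 20.4 to 24.4 CPM (counts scaled to library size) in tdT-low cells and 27.9 to 29.6 CPM in tdT-high cells. In QSCs replicates 1, 2 and 3 they took 562, 3000 and 771 CPM. The summed level of 8 endothelial markers was 18.8 to 35.0 TPM (the transcript level scaled by gene length and library size) in tdT-low cells, 3.16 to 4.69 TPM in tdT-high cells and 390 to 690 TPM in QSCs. The 4 erythroid markers summed to at most 0.679 TPM in tdT-low and 0.0974 TPM in tdT-high cells, and to 444 to 1171 TPM in QSCs. The 8 MuSC markers summed to 837 to 1007 TPM in tdT-low cells, 785 to 831 TPM in tdT-high cells and 2228 to 3118 TPM in QSCs, of which *Sdc4* made a mean of 93.7, 73.5 and 1823 TPM in the same 3 groups. *Myf5*, *Itga7* and *Cdh15* had higher mean TPM in both cultured groups than in QSCs. The 7 fibroblast markers summed to 309 to 376 TPM in tdT-low cells, 193 to 231 TPM in tdT-high cells and 740 to 1044 TPM in QSCs. Mitochondrial genes took 3.92 to 4.61% of counts in tdT-low cells, 4.44 to 4.95% in tdT-high cells and 11.4 to 19.0% in QSCs. The part of these differences in the results below was not tested, and in bulk RNA a smaller share of dividing cells and less RNA per cell cannot be told apart.

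The promoters of these genes are described first, because E2F-type sites are the textbook link between the replication genes and the cell cycle. They were read after the levels had been fitted. RefSeq promoter windows on build GRCm38.p6, from 250 bases before to 50 after a start site, were matched by symbol for 41 of the 49 genes and gave 50 windows. The other genes were *Gmnn*, *Mcm4*, *Gins1*, *Gins2*, *Gins4*, *Prim2*, *Pole* and *Rfc2*. The letters TTTCCCGC, TTTGGCGC, TTTCGCGC or TTTGCCGC, on either strand, were in windows of 16 of the 41 genes (39.0%), against 704 of 27025 genes (2.60%) in the whole table. The letters of the CHR element, TTTGAA or TTCGAA, were in 9 of the 41 genes (22.0%), against 21.7% of all genes. The letters CCAAT were in 25 of the 41 (61.0%), against 41.1% of all genes. Matches of the E2F-type letters upstream of the start site are shown for 7 genes whose levels the results turn on, in capitals and with the flanking bases in lower case, on the strand of the gene. *Gins3* and *Rfc3* also held upstream matches, beginning 41 and 10 bases before the start site, and are not shown. Overlapping matches are shown as a single run of capitals.
Orc1, chr4:108579407-108579453, plus strand: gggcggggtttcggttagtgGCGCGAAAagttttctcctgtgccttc
Cdc6, chr11:98907993-98908040, plus strand: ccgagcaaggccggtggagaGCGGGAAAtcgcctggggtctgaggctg
Mcm5, chr8:75109336-75109387, plus strand: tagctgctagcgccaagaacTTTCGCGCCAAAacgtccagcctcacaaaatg
Mcm6, chr1:128359784-128359835, minus strand: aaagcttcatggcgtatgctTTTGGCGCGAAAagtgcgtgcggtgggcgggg
Mcm6, chr1:128359725-128359772, minus strand: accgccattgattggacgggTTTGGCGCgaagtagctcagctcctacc
Mcm7, chr5:138172021-138172068, minus strand: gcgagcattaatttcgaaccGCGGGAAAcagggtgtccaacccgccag
Orc3, chr4:34614956-34615003, minus strand: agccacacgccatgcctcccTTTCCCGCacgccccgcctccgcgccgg
Pola1, chrX:93632266-93632313, minus strand: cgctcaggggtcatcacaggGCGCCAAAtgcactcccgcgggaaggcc

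The match began 27 bases before the start site in *Orc1*, 138 in *Cdc6*, 153 in *Mcm5*, 110 in *Mcm6*, 165 in *Mcm7*, 41 in *Orc3* and 138 in *Pola1*. *Mcm5* and *Mcm6* each held 2 overlapping matches there, facing opposite ways. *Mcm6* held another match, 47 bases before the start site, which is the second sequence given for it. The first 5 of these genes rose in tdT-low cells against QSCs and *Orc3* and *Pola1* did not pass the test, as given below. Of the genes with a window, 12 of the 33 called higher in that comparison held E2F-type letters (36.4%), and so did 4 of the other 8 (50%). The other 8 include *Gins3*, which held such letters and was not tested, so they are not all genes that failed the test. A match is a string of letters and not a measured site.

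Replication genes were far higher in both cultured groups than in QSCs. Genes are called, and written to rise or fall, where edgeR's quasi-likelihood test gave a Benjamini-Hochberg adjusted p below 0.01 over all 12614 genes and the change exceeded 1.5-fold. In tdT-low cells against QSCs, 41 of the 48 tested members rose (22.6% of all tested genes did) and 1 fell (26.5% of all tested genes did). In tdT-high cells against QSCs, 36 rose, against 24.6% of all tested genes, and 1 fell, against 26.4%. Both comparisons use the same QSCs libraries, and the 36 were all among the 41. The median log2 fold change of the members was 2.07 in tdT-low and 1.73 in tdT-high cells against QSCs, beside -0.07 and -0.02 for all tested genes. All 3 cultured libraries lay above all 3 QSCs libraries in CPM for 45 of 48 members in tdT-low cells (32.7% of all tested genes) and 41 of 48 in tdT-high cells (35% of all tested genes).

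**Figure D1:**
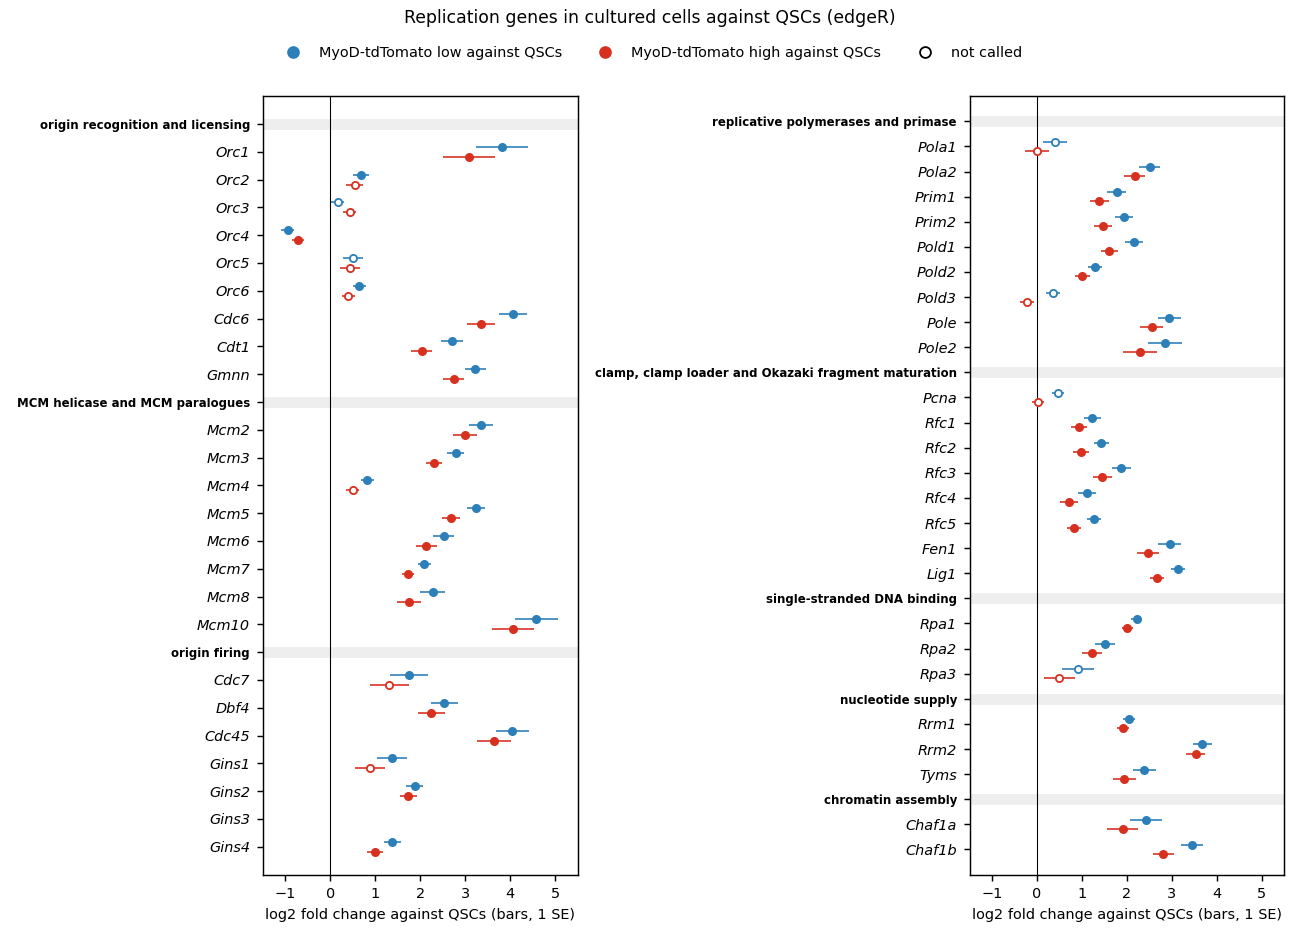
Log2 fold change of each member in tdT-low (blue) and tdT-high cells (red) against QSCs, with bars of 1 SE, by role; open points were not called and *Gins3* was not tested. Most members lie well right of 0, up to 4.58 for *Mcm10*, while *Orc2* to *Orc6*, *Mcm4*, *Pola1*, *Pold3*, *Pcna* and *Rpa3* lie within 1 of it in both comparisons.

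In level, the 49 members summed to 3882, 4676 and 4393 TPM in tdT-low cells, 2731, 3566 and 3144 TPM in tdT-high cells and 643, 842 and 585 TPM in QSCs. The 3 groups did not overlap in this sum. The mean TPM ran in the order tdT-low, tdT-high, QSCs for 47 of the 49 members. The share of all genes in that order is not given here, so the count is not read as a trait of the members. On log2(TPM + 1) all tested genes leaned the same way. Their median log2 difference was 0.67 in tdT-low and 0.59 in tdT-high cells against QSCs. In tdT-low against tdT-high cells it was 0.11. *Rrm2* alone made 23.6% of the sum in tdT-low and 26.6% in tdT-high cells, against 6.84% in QSCs, where *Pcna* was the most abundant member with 26.4%.

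**Figure D2:**
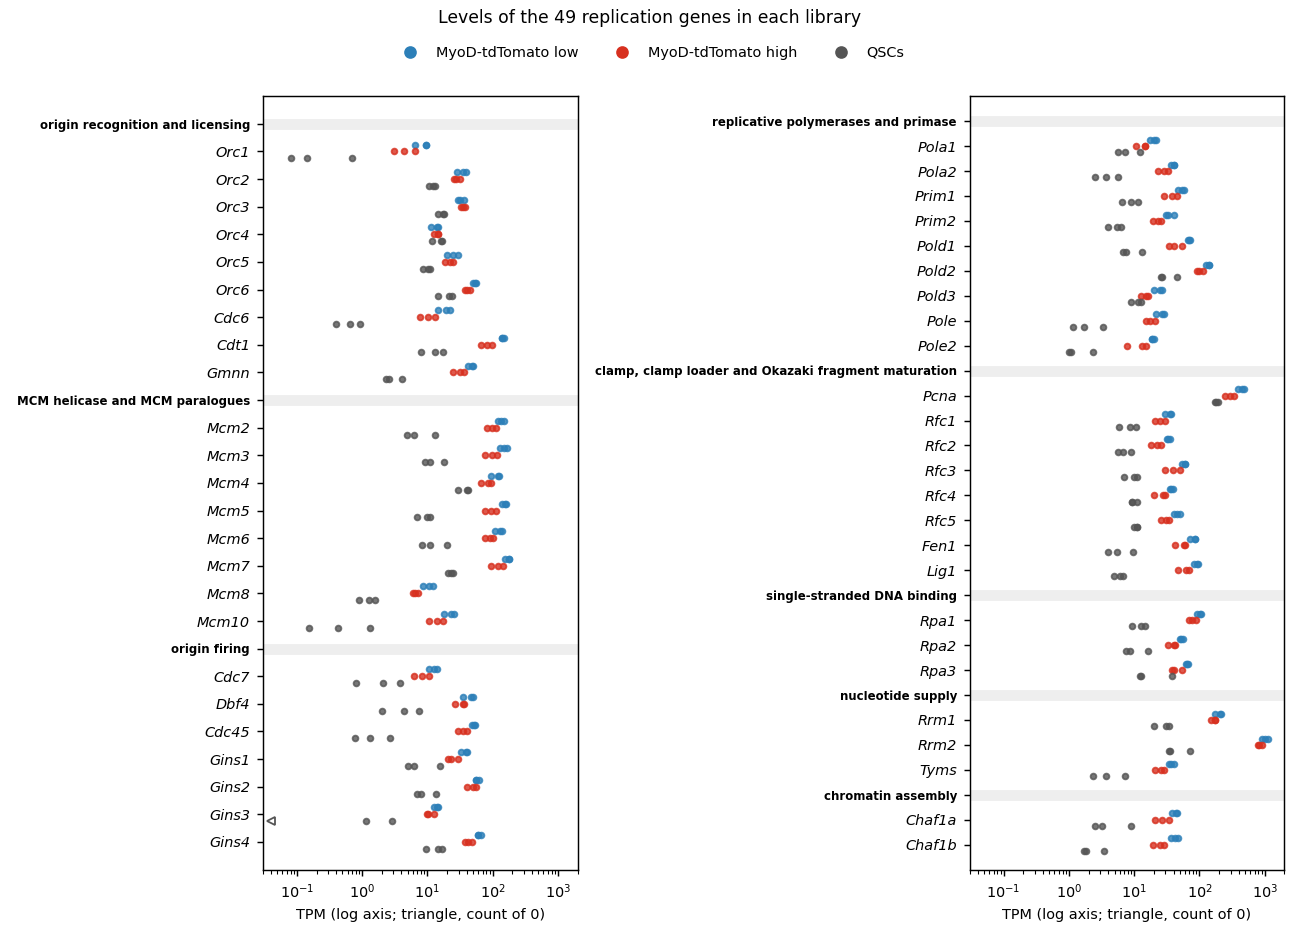
TPM of each member in each of the 9 libraries on a log axis, by role, with tdT-low in blue, tdT-high in red and QSCs in grey. QSCs points lie left of the cultured ones for most members, and *Orc4* is the member whose 3 groups run together, at 11.5 to 16.6 TPM.

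In origin recognition and licensing, 6 of 9 members rose and 1 fell in tdT-low cells against QSCs, and 4 rose and 1 fell in tdT-high cells. *Cdc6*, the ATPase that works with ORC to load MCM, had 14.6, 21.9 and 19.4 TPM in tdT-low cells, 7.83, 13.3 and 10.1 TPM in tdT-high cells and 0.398, 0.932 and 0.662 TPM in QSCs. The 3 groups did not overlap, and QSCs were far below both cultured groups. Its log2 fold change against QSCs was 4.06 ± 0.32 (SE, adjusted p = 1.51e-06) in tdT-low and 3.35 ± 0.31 (adjusted p = 4.96e-06) in tdT-high cells. *Orc1*, the ORC subunit known to be made anew in each cycle, had 6.49, 9.48 and 9.49 TPM in tdT-low cells, 3.08, 6.56 and 4.34 TPM in tdT-high cells and 0.697, 0.0818 and 0.142 TPM in QSCs. The cultured groups overlapped each other and lay above QSCs, whose values rest on 20, 1 and 4 counts. *Orc1* rose by 3.83 ± 0.58 (adjusted p = 0.000198) in tdT-low and by 3.09 ± 0.58 (adjusted p = 0.000743) in tdT-high cells on the log2 scale. *Cdt1*, which brings MCM to origins, and *Gmnn*, whose protein geminin blocks CDT1 after licensing, rose together, by 2.71 ± 0.24 and 3.22 ± 0.24 in tdT-low cells.

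The other ORC subunits had smaller fitted changes than *Orc1*, and the differences between subunits were not tested. *Orc4* was the member that fell. It had 11.5, 14.3 and 13.9 TPM in tdT-low cells, 14.7, 12.7 and 14.8 TPM in tdT-high cells and 16.05, 16.6 and 11.7 TPM in QSCs, so the groups overlapped in TPM. In edgeR its log2 fold change was -0.94 ± 0.14 (adjusted p = 0.000179) in tdT-low and -0.71 ± 0.14 (adjusted p = 0.00109) in tdT-high cells. On log2(TPM + 1) with limma it was -0.14 and -0.05 and not called (adjusted p = 0.491 and 0.791), and with no filter on low counts the call in tdT-high cells was lost (-0.55). *Orc3* had the smallest change of the group in tdT-low cells against QSCs, with 29.9, 31.7 and 35.8 TPM in tdT-low cells, 35.0, 33.3 and 38.2 TPM in tdT-high cells and 18.2, 17.6 and 14.4 TPM in QSCs. The cultured libraries lay above the QSCs libraries, yet the fit gave 0.16 ± 0.14 (adjusted p = 0.321) and 0.43 ± 0.14 (adjusted p = 0.0187). *Orc5* was not called in either comparison (0.50 ± 0.22 and 0.45 ± 0.22). *Orc2* and *Orc6* rose in tdT-low cells (0.69 ± 0.19 and 0.65 ± 0.14) and were not called in tdT-high cells (0.54 ± 0.19 and 0.40 ± 0.14). The call of *Orc2* was lost on leaving out any library other than tdT-low replicate 1 or QSCs replicate 3 (adjusted p = 0.0129 to 0.0382), and that of *Orc6* without tdT-low replicate 3 (adjusted p = 0.0119) or QSCs replicate 3 (log2 fold change 0.55). The means of *Orc2* to *Orc5* lay within 2.58-fold of each other in tdT-low cells, 2.52-fold in tdT-high cells and 1.69-fold in QSCs, while the highest over the lowest of the 6 ORC genes was 5.73 to 7.75 in tdT-low libraries, 6.79 to 12.04 in tdT-high libraries and 31.0, 288 and 101 in QSCs replicates 1, 2 and 3. *Orc1*, the lowest, rests on 20, 1 and 4 counts there.

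The choice of scale matters for such small changes. TMM scaling in edgeR centred all tested genes near 0, whereas on log2(TPM + 1) the median of all tested genes was 0.67 in tdT-low and 0.59 in tdT-high cells against QSCs. On that scale 47 members rose and none fell in tdT-low cells, and 45 rose and none fell in tdT-high cells. Their median log2 differences were 2.68 and 2.12. The median of all tested genes itself exceeded 1.5-fold there, and the share of them called higher is not given here. These counts are therefore not read as a result about the members. Among all called genes the share that was higher was 79.2% against QSCs in tdT-low cells on the TPM scale and 46.0% in edgeR, and 76.2% and 48.2% in tdT-high cells. *Orc4* was the tested member not called in tdT-low cells on that scale, so *Orc3*, *Orc5*, *Pola1*, *Pold3*, *Pcna* and *Rpa3* were called there.

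The MCM genes rose as a group. All 8 rose in tdT-low cells against QSCs and 7 rose in tdT-high cells. *Mcm10*, which is no part of the MCM ring but is needed to start unwinding, had the largest fitted change of all members in edgeR against QSCs, while on log2(TPM + 1) in tdT-low cells *Rrm2* (4.48), *Cdc45* (4.40), *Mcm2* (4.02) and *Mcm5* (3.93) exceeded its 3.87. It had 17.9, 25.2 and 23.0 TPM in tdT-low cells, 10.6, 17.5 and 14.1 TPM in tdT-high cells and 0.424, 1.34 and 0.152 TPM in QSCs, where 20, 27 and 7 counts were found. No group overlapped another in TPM, though in CPM the cultured groups overlapped each other. The log2 fold changes of *Mcm10* against QSCs were 4.58 ± 0.47 (adjusted p = 1.11e-05) and 4.07 ± 0.46 (adjusted p = 2.24e-05). *Mcm8*, a paralogue known for recombination repair, rose by 2.28 ± 0.27 and 1.75 ± 0.27 from a level near 1 TPM in QSCs.

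The 6 subunits of the replicative helicase, *Mcm2* to *Mcm7*, form a ring with 1 copy of each. Their mean levels lay between 113 TPM (*Mcm4*) and 169 TPM (*Mcm7*) in tdT-low cells and between 82.4 TPM (*Mcm4*) and 119 TPM (*Mcm7*) in tdT-high cells, within 1.49-fold and 1.45-fold. In QSCs they spread over 4.60-fold, from 8.07 TPM (*Mcm2*) to 37.1 TPM (*Mcm4*). The subunit that was lowest in culture was therefore the highest in QSCs. *Mcm4* had 92.7, 126 and 121 TPM in tdT-low cells, 66.5, 94.8 and 86.0 TPM in tdT-high cells and 40.2, 42.1 and 29.0 TPM in QSCs. In each QSCs library *Mcm4* exceeded the other 5 subunits, of which *Mcm7* came next with 22.9, 25.02 and 20.5 TPM. *Mcm2* had 123, 151 and 136 TPM in tdT-low cells, 81.6, 112 and 98.95 TPM in tdT-high cells and 4.80, 13.1 and 6.26 TPM in QSCs. The log2 fold change of *Mcm4* in tdT-low cells against QSCs, 0.83 ± 0.14 (adjusted p = 0.000429), was the smallest of the 6, and the others ran from 2.10 ± 0.14 for *Mcm7* to 3.35 ± 0.27 for *Mcm2*. In tdT-high cells *Mcm4* was under the fold threshold (0.50 ± 0.14, adjusted p = 0.00886), and it passed without tdT-high replicate 1 (0.61, adjusted p = 0.00362). The difference between *Mcm4* and the other subunits was not tested.

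**Figure D3:**
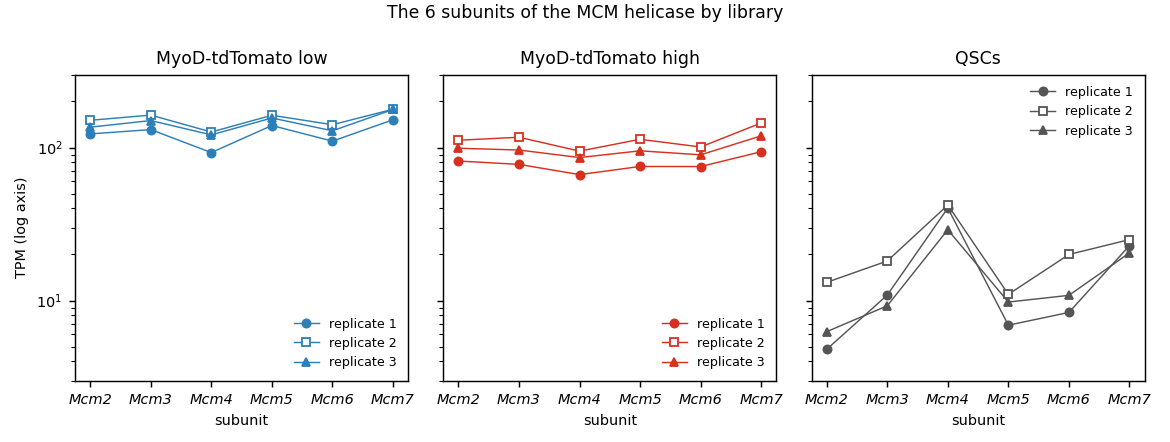
TPM of *Mcm2* to *Mcm7* on a log axis in each library of tdT-low, tdT-high and QSCs, with a line for each replicate. The lines are nearly level in the cultured groups (82.4 to 169 TPM in the means) and peak at *Mcm4* in all 3 QSCs libraries.

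Among the 7 origin firing genes, all 6 that were tested rose in tdT-low cells and 4 rose in tdT-high cells. *Cdc45*, which joins MCM and GINS to form the active helicase, had 48.3, 51.6 and 53.5 TPM in tdT-low cells, 29.9, 40.4 and 35.4 TPM in tdT-high cells and 1.31, 0.766 and 2.72 TPM in QSCs. No group overlapped another, and the log2 fold change against QSCs was 4.05 ± 0.37 (adjusted p = 5.19e-06) and 3.64 ± 0.37 (adjusted p = 9.42e-06). *Gins1* had the smallest change, with 32.7, 39.7 and 39.9 TPM in tdT-low cells, 22.9, 29.1 and 20.8 TPM in tdT-high cells and 6.19, 15.4 and 5.03 TPM in QSCs. It rose in tdT-low cells (1.37 ± 0.33, adjusted p = 0.0038) and was not called in tdT-high cells (0.88 ± 0.33, adjusted p = 0.034). QSCs replicate 2 stood above the other QSCs libraries, and without it *Gins1* passed in tdT-high cells too (1.37, adjusted p = 0.000296). The call in tdT-low cells was lost without tdT-low replicate 2 or 3 or QSCs replicate 1 or 3 (adjusted p = 0.0127 to 0.0154). *Gins3* had 387, 418 and 424 counts in tdT-low cells, 294, 397 and 294 in tdT-high cells and 30, 31 and 0 in QSCs, where the 0 allows up to 0.190 CPM (3 counts of the library, counting error only). With no filter its log2 fold change was 2.98 ± 0.79 (adjusted p = 0.0105) and 2.76 ± 0.78 (adjusted p = 0.0145), not called. Of the kinase that fires origins, the regulatory subunit gene *Dbf4* rose by 2.54 ± 0.31 and 2.25 ± 0.30. The catalytic subunit gene *Cdc7* rose in tdT-low cells (1.75 ± 0.43, adjusted p = 0.00435) and not in tdT-high cells (1.32 ± 0.43, adjusted p = 0.0185). The *Cdc7* call was lost without any tdT-low library or without QSCs replicate 3 (adjusted p = 0.01 to 0.0168), and *Cdc7* passed in tdT-high cells without QSCs replicate 2 (1.75, adjusted p = 0.00424).

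Of the 9 genes for replicative polymerases and primase, 7 rose in each cultured group. *Pole*, the catalytic subunit of the leading-strand polymerase, had 21.4, 28.9 and 26.5 TPM in tdT-low cells, 15.1, 20.7 and 17.6 TPM in tdT-high cells and 1.68, 3.29 and 1.16 TPM in QSCs. The cultured libraries stood apart from QSCs, with log2 fold changes of 2.94 ± 0.26 (adjusted p = 3.48e-06) and 2.55 ± 0.25 (adjusted p = 8.3e-06). *Pold3*, an accessory subunit of polymerase delta that is also used in break repair, had 20.4, 27.1 and 24.9 TPM in tdT-low cells, 12.7, 16.2 and 15.2 TPM in tdT-high cells and 11.6, 12.6 and 8.78 TPM in QSCs. tdT-low libraries were the high ones here, and in TPM tdT-high libraries lay just above QSCs. In CPM, every tdT-high library lay below every QSCs library. The change of *Pold3* was 0.35 ± 0.15 (adjusted p = 0.0628) and -0.23 ± 0.15 (adjusted p = 0.214). The second value turned to 0.40 on log2(TPM + 1). *Pola1*, the catalytic subunit of the polymerase that begins each strand, was also not called, at 0.40 ± 0.26 and -0.01 ± 0.26. It had 17.2, 21.8 and 19.9 TPM in tdT-low cells, 10.8, 14.8 and 14.8 TPM in tdT-high cells and 12.4, 5.62 and 7.14 TPM in QSCs, with QSCs replicate 1 the high library of its group. Its partners in the same complex, *Pola2*, *Prim1* and *Prim2*, rose by 1.77 to 2.51 in tdT-low cells and by 1.38 to 2.17 in tdT-high cells.

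In the group of the clamp, its loader and Okazaki fragment maturation, 7 of 8 members rose in each cultured group and *Pcna* was the exception. *Pcna*, the sliding clamp that holds polymerases on DNA, had 390, 474 and 448 TPM in tdT-low cells, 243, 343 and 295 TPM in tdT-high cells and 171, 195 and 181 TPM in QSCs. All cultured libraries were above all QSCs libraries in TPM, but the QSCs level was the highest of any member in that group. The log2 fold change was 0.46 ± 0.13 (adjusted p = 0.0105) in tdT-low and 0.02 ± 0.13 (adjusted p = 0.917) in tdT-high cells. On log2(TPM + 1) *Pcna* was called in both, at 1.26 and 0.67, where the median of all tested genes was 0.67 and 0.59. *Lig1*, the ligase that joins Okazaki fragments, had 82.8, 95.1 and 93.3 TPM in tdT-low cells, 47.5, 69.9 and 61.6 TPM in tdT-high cells and 6.65, 6.16 and 4.96 TPM in QSCs. It rose by 3.13 ± 0.15 (adjusted p = 6.45e-08) and 2.67 ± 0.15 (adjusted p = 1.33e-07), with 3 separate groups of libraries. *Fen1*, the nuclease that trims the fragments, rose by 2.95 ± 0.25 and 2.47 ± 0.25. The 5 clamp loader genes *Rfc1* to *Rfc5* rose by 1.11 to 1.87 in tdT-low cells and by 0.71 to 1.46 in tdT-high cells. The smallest was *Rfc4*, whose call in tdT-high cells (0.71 ± 0.19, adjusted p = 0.00752) was lost without any tdT-low library, tdT-high replicate 2 or 3 or QSCs replicate 1 (adjusted p = 0.0144 to 0.0464).

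Replication protein A (RPA) coats single-stranded DNA. *Rpa1*, its largest subunit, had 90.04, 105 and 101 TPM in tdT-low cells, 69.9, 87.1 and 77.4 TPM in tdT-high cells and 14.8, 12.8 and 9.41 TPM in QSCs. It rose by 2.21 ± 0.13 (adjusted p = 1.96e-07) and 2.01 ± 0.13 (adjusted p = 3.19e-07), and *Rpa2* rose by 1.52 ± 0.23 and 1.22 ± 0.23. *Rpa3*, the smallest subunit, had 63.0, 65.9 and 64.7 TPM in tdT-low cells, 37.4, 54.8 and 40.0 TPM in tdT-high cells and 12.5, 38.3 and 12.3 TPM in QSCs. QSCs replicate 2 was about 3 times the other QSCs libraries and overlapped the tdT-high range. *Rpa3* was not called (0.92 ± 0.35, adjusted p = 0.0391, and 0.49 ± 0.35, adjusted p = 0.231). Without QSCs replicate 2 it was called in both comparisons, at 1.49 (adjusted p = 0.000171) and 1.07 (adjusted p = 0.00124).

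All 3 genes of nucleotide supply rose in each cultured group. *Rrm2*, the subunit of ribonucleotide reductase that limits deoxynucleotide production in S phase, was the most abundant member in culture. It had 909, 1141 and 1002 TPM in tdT-low cells, 800.4, 902 and 804 TPM in tdT-high cells and 35.9, 71.3 and 34.5 TPM in QSCs. It rose by 3.67 ± 0.21 (adjusted p = 1.71e-07) and 3.53 ± 0.21 (adjusted p = 1.88e-07). *Rrm1*, the large subunit, had 170, 214 and 207 TPM in tdT-low cells, 148, 173 and 175 TPM in tdT-high cells and 30.3, 34.4 and 19.8 TPM in QSCs. Its change of 2.04 ± 0.13 (adjusted p = 3.98e-07) and 1.92 ± 0.13 (adjusted p = 5.24e-07) was smaller than that of *Rrm2*, so that *Rrm2* over *Rrm1* in mean TPM was 5.16 in tdT-low, 5.06 in tdT-high and 1.68 in QSCs. *Tyms*, which makes thymidylate, rose by 2.38 ± 0.26 and 1.94 ± 0.26.

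Both genes of chromatin assembly factor, which places new histones behind the fork, rose. *Chaf1b* had 36.6, 46.1 and 42.3 TPM in tdT-low cells, 19.5, 28.8 and 25.2 TPM in tdT-high cells and 1.68, 3.43 and 1.84 TPM in QSCs. The 3 groups were separate, and the change against QSCs was 3.44 ± 0.25 (adjusted p = 8.06e-07) and 2.81 ± 0.24 (adjusted p = 2.81e-06). *Chaf1a* had 38.2, 45.2 and 44.0 TPM in tdT-low cells, 21.1, 34.0 and 26.4 TPM in tdT-high cells and 2.49, 9.08 and 3.16 TPM in QSCs. It rose by 2.42 ± 0.36 (adjusted p = 0.000154) and 1.90 ± 0.35 (adjusted p = 0.000693), with QSCs replicate 2 the high library of its group.

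QSCs replicate 2, the shallowest library, held the highest QSCs level in TPM of 34 of the 49 members. The share of all genes for which that library was highest is not given here, so the count is not read as a trait of the members. QSCs replicate 2 also held the highest level of chemosensory receptor transcripts, whose 90th percentile was 2.50 TPM there, 0.544 TPM in QSCs replicate 1, 0.635 TPM in QSCs replicate 3 and at most 0.0203 TPM in any cultured library. At or below that level, chosen as a yardstick after the values were seen, lay *Cdc6* and *Mcm10* in replicate 1, *Orc1*, *Cdc6*, *Mcm8*, *Mcm10*, *Cdc45* and *Pole2* in replicate 2, and *Orc1*, *Mcm10* and *Gins3* in replicate 3. No member was at or below it in a cultured library. Whether background reads make up the QSCs level of these genes was not tested. Without QSCs replicate 2, 41 members rose in tdT-low and 39 in tdT-high cells, and 1 fell in each.

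Between the cultured populations the differences were small and nearly all in the same direction. No member was called in tdT-low against tdT-high cells with edgeR and the groups alone in the model, where 1.23% of all tested genes were called higher and 3.88% lower. At an unadjusted p under 0.05, 16 members were higher in tdT-low cells (9.33% of all tested genes), and at an adjusted p under 0.05, 2 were (3.65% of all tested genes). These were *Pold3* (0.58 ± 0.15, adjusted p = 0.0321) and *Lig1* (0.47 ± 0.13, adjusted p = 0.0475). DESeq2 called 1 member, with no share of all tested genes to set beside it. The log2 fold change was above 0 for 46 of 48 members, with a median of 0.41 beside 0.00 for all tested genes, and the exceptions were *Orc3* (-0.27 ± 0.14) and *Orc4* (-0.23 ± 0.14). Every tdT-low library exceeded every tdT-high library in CPM for 35 of 48 members, against 20.4% of all tested genes. *Orc3* was the member with every tdT-low library below every tdT-high one.

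Neither the labels nor the study state a pairing, but same-numbered libraries of the cultured groups tended to vary alike. In CPM, replicate 1 was the lowest tdT-low library for 37 of 48 members and the lowest tdT-high library for 44, and replicate 2 was the highest for 35 and 42. Among all tested genes replicate 1 was lowest for 37.7% in tdT-low and 38.3% in tdT-high cells, and replicate 2 was highest for 33.7% and 37.6%. *Myog*, the transcription factor of terminal differentiation, ran the other way, at 714, 239 and 619 TPM in tdT-low replicates 1, 2 and 3 and at 4550, 2521 and 3711 TPM in tdT-high replicates 1, 2 and 3. With 3 libraries a group, no correlation between *Myog* and the members was computed, and whether one depends on the other was not tested. The 6 myogenic commitment markers were all called lower in tdT-low than in tdT-high cells, *Myod1* by a log2 fold change of -1.04 ± 0.16 (adjusted p = 0.00308) and *Myog* by -2.91 ± 0.39 (adjusted p = 0.00172).

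Set against the library of the same number, tdT-low cells had the higher TPM for 47, 48 and 47 of the 49 members in pairs 1, 2 and 3. Of all tested genes, 60.7%, 63.1% and 66.0% were higher in tdT-low cells in these pairs. In all 3 pairs, 47 members were higher (48.1% of all tested genes). The median log2 ratio of the members was 0.67, 0.41 and 0.54, where the median of all tested genes was 0.13, 0.11 and 0.15. When replicate number was added as a block to a fit of only the tdT-low and tdT-high libraries, 7 members rose in tdT-low cells and none fell, beside 6.48% of all tested genes that rose. The block rests on a pairing inferred from these same counts. With the block and all 9 libraries none was called. The 7 were *Orc1* (0.79 ± 0.15, adjusted p = 0.00137), *Cdc6* (0.75 ± 0.08, adjusted p = 1.98e-05), *Cdt1* (0.72 ± 0.08, adjusted p = 4.74e-05), *Chaf1b* (0.67 ± 0.08, adjusted p = 4.8e-05), *Pold3* (0.60 ± 0.08, adjusted p = 8.54e-05), *Mcm5* (0.60 ± 0.07, adjusted p = 4.42e-05) and *Pold1* (0.59 ± 0.09, adjusted p = 0.000498). The first 3 act in origin licensing, but the role as a whole did not stand out. Without the block its 9 members had a median log2 fold change of 0.25, beside 0.41 for all tested members. *Orc3* and *Orc4*, of the same role, went the other way. With the block, other members had an adjusted p under 0.01 but were under the 1.5-fold threshold, such as *Pcna* (0.48 ± 0.06, adjusted p = 6.85e-05).

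Of these genes, *Cdt1* had 138, 149 and 141 TPM in tdT-low cells against 66.1, 97.9 and 80.6 TPM in tdT-high cells. *Mcm5* had 139, 163 and 156 TPM in tdT-low cells against 75.2, 113 and 95.2 TPM in tdT-high cells. *Pold1*, the catalytic subunit of polymerase delta, had 65.6, 70.4 and 68.9 TPM in tdT-low cells against 34.5, 53.2 and 40.3 TPM in tdT-high cells. In each of the 3 the tdT-high libraries spread more than the tdT-low ones and did not reach them. The nucleotide genes *Rrm1* and *Rrm2* differed least among the members outside ORC and GINS (0.12 ± 0.13 and 0.15 ± 0.19 without the block, 0.14 ± 0.06 and 0.17 ± 0.06 with it). Of 7 tested endothelial markers 5 were called higher in tdT-low than in tdT-high cells, and of 7 tested myeloid markers 1 was, *Lyz2* (2.53 ± 0.40, adjusted p = 0.00328). The study describes genes of endothelial development as expressed by the tdT-low population. Whether other cells or the MuSCs carried these markers, and what part this had in the differences, was not tested.

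**Figure D4:**
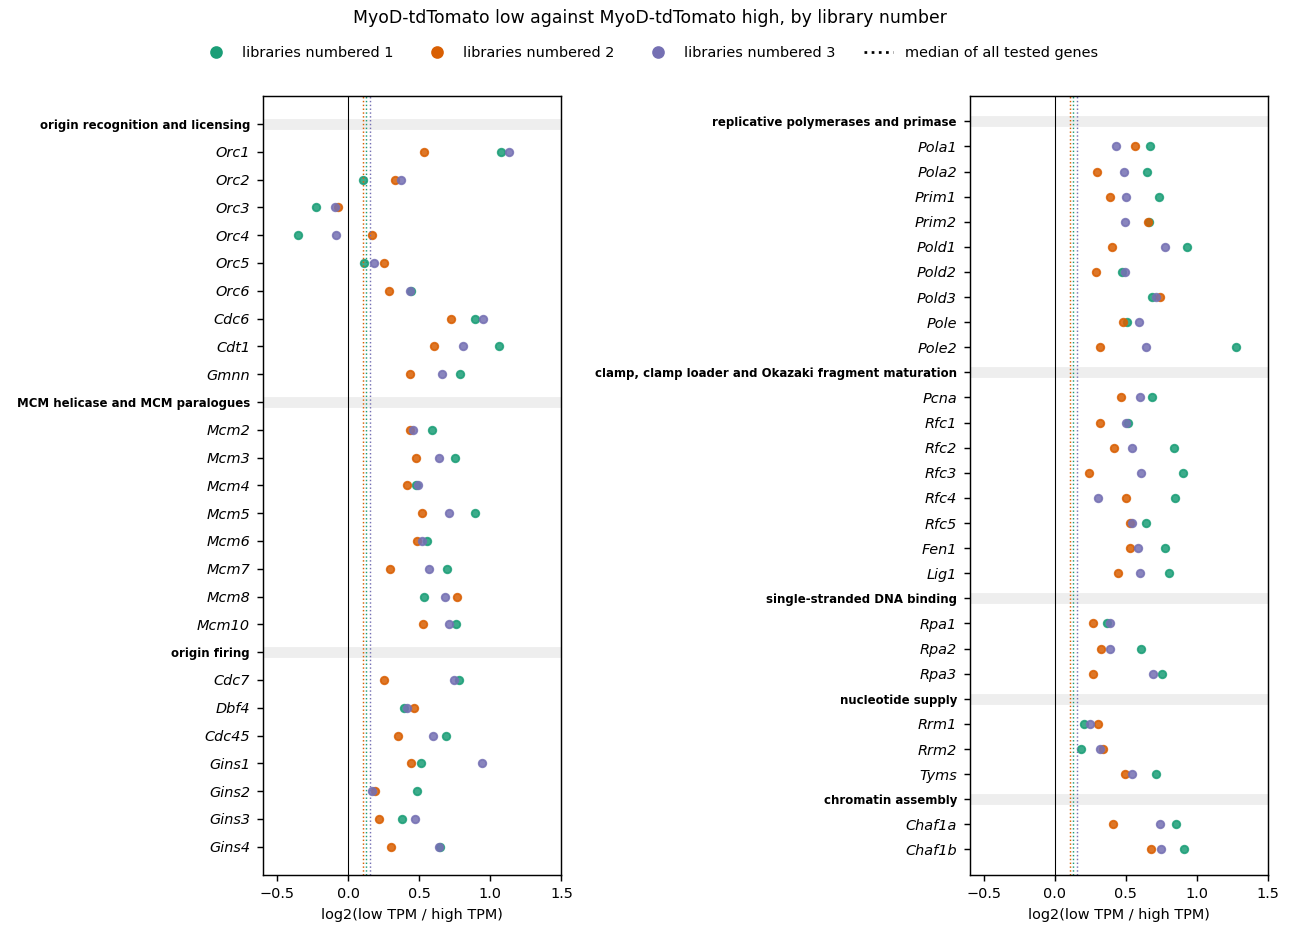
Log2 ratio of tdT-low over tdT-high TPM for each member, with a point for each pair of libraries of the same number; dotted lines give the median of all tested genes in each pair (0.13, 0.11 and 0.15). Points lie right of 0 for all members but *Orc3* (all 3 pairs) and *Orc4* (pairs 1 and 3), and most lie right of the dotted lines.

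Genes that work beside the members were counted in the same way, to be read against the 22.6% and 24.6% of all tested genes that rose in tdT-low and tdT-high cells. The list of other fork and origin proteins had 33 tested genes, of which 24 rose and 3 fell in tdT-low cells against QSCs, and 22 rose and 3 fell in tdT-high cells. The most abundant that rose was *Ssrp1*, a histone chaperone subunit, at 309 ± 29.7 TPM in tdT-low, 229.7 ± 32.5 TPM in tdT-high and 67.2 ± 19.3 TPM in QSCs (SD, n = 3 each). *Top2a*, the topoisomerase that untangles copied DNA, rose by 3.66 ± 0.24 and 3.61 ± 0.24, and *Pclaf*, a PCNA-binding factor, by 3.59 ± 0.39 and 3.19 ± 0.39. The genes that fell in tdT-low cells were *Pold4* and *Pole4*, small accessory subunits of the same polymerases whose catalytic genes rose, and *Top1*. In tdT-high cells they were *Pold4*, *Pole4* and *Mcm9* (-0.83 ± 0.24, adjusted p = 0.00999). The *Mcm9* call was lost on leaving out any library but QSCs replicate 3 (adjusted p = 0.0125 to 0.0454) and on log2(TPM + 1) (-0.13, adjusted p = 0.612). *Pole4* had 35.1, 40.6 and 38.5 TPM in tdT-low cells, 29.2, 34.1 and 33.0 TPM in tdT-high cells and 52.9, 56.1 and 59.6 TPM in QSCs. It fell by 1.38 ± 0.15 and 1.49 ± 0.15 on the log2 scale, and on log2(TPM + 1) by 0.55, under the fold threshold, and 0.79. *Pold4* fell by 1.35 ± 0.31 in tdT-low cells, a call lost on log2(TPM + 1) (-0.53, adjusted p = 0.0755) and without tdT-low replicate 2 or 3 or QSCs replicate 1 or 3 (adjusted p = 0.0116 to 0.0145). In tdT-high cells *Pold4* fell by 1.49 ± 0.31, also not called on log2(TPM + 1) (-0.79, adjusted p = 0.0142). *Top1* fell by 1.12 ± 0.13 in tdT-low cells against QSCs (-0.31, not called, on log2(TPM + 1)). It was also called lower in tdT-low than in tdT-high cells (-0.76 ± 0.13, adjusted p = 0.00412), a call lost without any tdT-low library or tdT-high replicate 1 or 3 (adjusted p = 0.0146 to 0.0246) and on log2(TPM + 1) (-0.62, adjusted p = 0.0379). With the replicate block and only the cultured libraries, *Tonsl*, *Uhrf1*, *Recql4* and *Timeless* of this list were called higher in tdT-low cells (0.74, 0.60, 0.59 and 0.59).

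Of 15 other nucleotide enzymes, 8 rose and 1 fell in tdT-low cells and 5 rose and 1 fell in tdT-high cells against QSCs. *Tk1*, the thymidine kinase of dividing cells, had 172, 191 and 185 TPM in tdT-low cells, 91.8, 133 and 105 TPM in tdT-high cells and 2.19, 5.99 and 4.84 TPM in QSCs. It rose by 4.64 ± 0.30 and 4.04 ± 0.29. *Cad*, which starts pyrimidine synthesis, rose by 1.97 ± 0.18 and 1.55 ± 0.18, and *Dut*, which removes dUTP, by 2.11 ± 0.22 and 1.67 ± 0.22. The gene that fell was *Dguok*, a kinase that recycles deoxynucleosides in mitochondria, at -1.68 ± 0.24 and -1.74 ± 0.24. Of 8 S phase regulators, 7 rose in each cultured group, among them the cyclin genes *Ccna2* (3.50 ± 0.30 and 3.26 ± 0.30) and *Ccne1* (3.48 ± 0.28 and 2.997 ± 0.28) and *Fbxo5*, an inhibitor of the anaphase-promoting complex (3.05 ± 0.42 and 2.59 ± 0.42). *Cdk2*, the partner of both cyclins, was not called (0.23 ± 0.12 and 0.47 ± 0.12), though it was on log2(TPM + 1) (0.99 and 1.10). Of 20 mitosis genes, 19 rose in each cultured group, with a median log2 fold change of 3.72 in tdT-low and 3.55 in tdT-high cells. None of the nucleotide, S phase and mitosis genes was called between tdT-low and tdT-high cells with the groups alone in the model. *Tk1* was called higher in tdT-low cells with the replicate block and only the cultured libraries (0.64, adjusted p = 4.89e-05) and with only those groups fitted (0.63, adjusted p = 0.00653).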

How the data were processed

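Libraries were assigned to groups, and numbered, by their labels. The authors mapped and counted paired-end reads of 36 bases from poly(A) RNA with default parameters of CLC Genomics Workbench 20.0.3, with build GRCm39 named in the submitters' processing notes; which annotation and strand settings were used is not given in the sources used here. The deposited raw counts per gene are whole numbers with no normalization, and the deposited TPM were computed by the authors from the same counts within each library. Without a strand setting, overlapping and antisense genes cannot be told apart. Another 18 per-sample columns were not used, nor were 24 columns of the authors' comparisons, which hold group maxima, fold changes and p-values.

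Counts of the 12614 genes with at least 1 count in every library went into edgeR 4.0.16 under R 4.3.3 (TMM, robust quasi-likelihood fit, 9 libraries, 3 group coefficients). SE is the log2 fold change divided by the square root of F. Promoters came from RefSeq on GRCm38.p6, whose coordinates were not mixed with those of the files. tdT-low and tdT-high libraries of the same number correlated in their deviations from the group means at 0.44, 0.43 and 0.18 across genes. Their numbers were taken to pair them on that ground alone, since no pairing is stated by the labels or the study. With QSCs the values were -0.05 to 0.01. Alternatives were RLE scaling, DESeq2 1.42.0, edgeR's filterByExpr in place of the count minimum, no minimum, fitting just the 2 groups at hand, calling at an adjusted p of 0.05, limma 3.58.1 with pseudocounts of 1 or 0.1 added to TPM before log2, a block for replicate number and leaving out each library. The fits were tested on simulated data. Genes named with full values are the largest and smallest change of each role group, the MCM subunits, members called between the cultured groups, members that went against their group, and up to 3 abundant called genes of each other list, with the genes that fell and others beside them named after their values were seen. The members and lists were chosen with earlier results of these data known. Protein sequences were not used here.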

Additional observations from a re-analysis of the deposited data

How the results depend on the processing

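In tdT-low against tdT-high cells, the count of members called was 0 in the reported fit, 1 with DESeq2, 3 with only the 2 groups fitted, 2 at an adjusted p under 0.05 with no fold threshold and 7 with the replicate block and only those libraries. It was 0 to 1 when each library was left out, the 1 being *Cdt1* without QSCs replicate 1 (adjusted p = 0.00903). The cause was not tested. With the block and all libraries it was 0, and 41 and 37 members were called in tdT-low and tdT-high cells against QSCs. Against QSCs, the calls numbered 42 in tdT-low cells (38 to 42 with a library left out, 39 to 47 otherwise) and 37 in tdT-high cells (36 to 40 and 36 to 45). Shares of all tested genes are given above for the reported fit. Between the cultured groups they are also given at an adjusted p under 0.05 and for the block with only those libraries. For the other settings none is given, so their counts cannot be set against a general rate. Among members that were not called, *Pola1* in tdT-high cells against QSCs turned from -0.01 to 0.059 with filterByExpr, 0.15 with no filter, 0.027 with only the 2 groups, 0.67 and 0.74 on log2(TPM + 1) and log2(TPM + 0.1), 0.024 with the replicate block and -0.26 to 0.34 with a library left out. *Pold3* turned from -0.23 to 0.40 and 0.43 on the TPM scales. *Pcna* (0.02) ranged over -0.084 to 0.13 with a library left out, and *Orc5* between the cultured groups (0.05) over -0.081 to 0.17. The depth of the QSCs libraries limits the members with few counts there.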
